A study of Mus musculus with 13 samples.

Results

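The Col2a1 locus held 37 rib and 17 nasal Sox9 peaks, more rib peaks than any other bin of 200 kb in the genome. With peaks at most 500 bp apart joined, the locus held 22 rib regions and ranked 5. Its members are all peaks of the deposited lists whose centre lies on chromosome 15 between 97750000 and 97950000 of the mouse build mm9. These members, taken by position in a locus chosen with earlier results of these data known, are 54 of the 45096 peaks listed for both tissues. The rib peaks divide into 10 of Class I and 27 of Class II, names that the submitters gave to subsets of the rib list. The series comprised 13 libraries from untreated wild-type ICR mice, 11 from rib chondrocytes of postnatal day 1 and 2 from nasal septum chondrocytes of embryonic day 17.5. In both tissues the cells were freed from cartilage with enzymes. The peaks come from 1 Sox9 library of each tissue, so no comparison has replicates, and tissue and stage differ together. The lists give positions without height, read number or significance, and the chondrocyte label could not be checked by expression. Positions are given 1-based.

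Col2a1 encodes the chain of type II collagen, the main fibrillar collagen of cartilage and is a standard marker gene of chondrocytes. Sox9 is an HMG-box transcription factor that chondrocytes need, together with its relatives Sox5 and Sox6, to form and to make matrix. It is known to bind a chondrocyte enhancer in the first intron of Col2a1, and further enhancers are known upstream of the gene. In ChIP-seq, a peak is a stretch where fragments bound by the antibody pile up above background, and it shows occupancy without showing what that occupancy does.

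Col2a1 lies on the minus strand at about 97804000 to 97834000, rounded bounds whose exact ends may differ by 1 or 2 kb, so upstream of the gene means higher positions. Its next protein-coding neighbours, by order in RefSeq GRCm38.p6, are Tmem106c, which encodes a membrane protein, beyond the 3' end, and Senp1, which encodes a protease of SUMO tags, on the upstream side. Next after these come Vdr, the vitamin D receptor gene, beyond Tmem106c, and Pfkm, the gene of muscle phosphofructokinase, beyond Senp1. No mm9 annotation was used, so which exon or intron a peak lies in, and which upstream peaks lie within a neighbouring gene, was not determined.

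The rib peaks began near the 3' end of Col2a1 and stopped far upstream of its start. They ran over 81.7 kb, from 97804265 to 97885914. The next rib peak below lay 66.3 kb away, ending at 97737958, and the next above lay 97.6 kb away, starting at 97983491. By centre, 20 rib peaks lay in the gene, 17 upstream of its start and 0 below its 3' end. Of the 17 nasal peaks, 6 lay in the gene, 11 upstream and again 0 below the 3' end. The nasal peaks ran from 97805762 to 97923810, and the last of them stood alone, whereas the one before it ended at 97885936, close to the end of the rib peaks. In steps of 10 kb from the gene start, the fullest step for rib was the first 10 kb of the gene, with 11 rib and 4 nasal peaks. The fullest step for nasal was 20 to 30 kb upstream, with 5 rib and 6 nasal peaks.

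**Figure D1:**
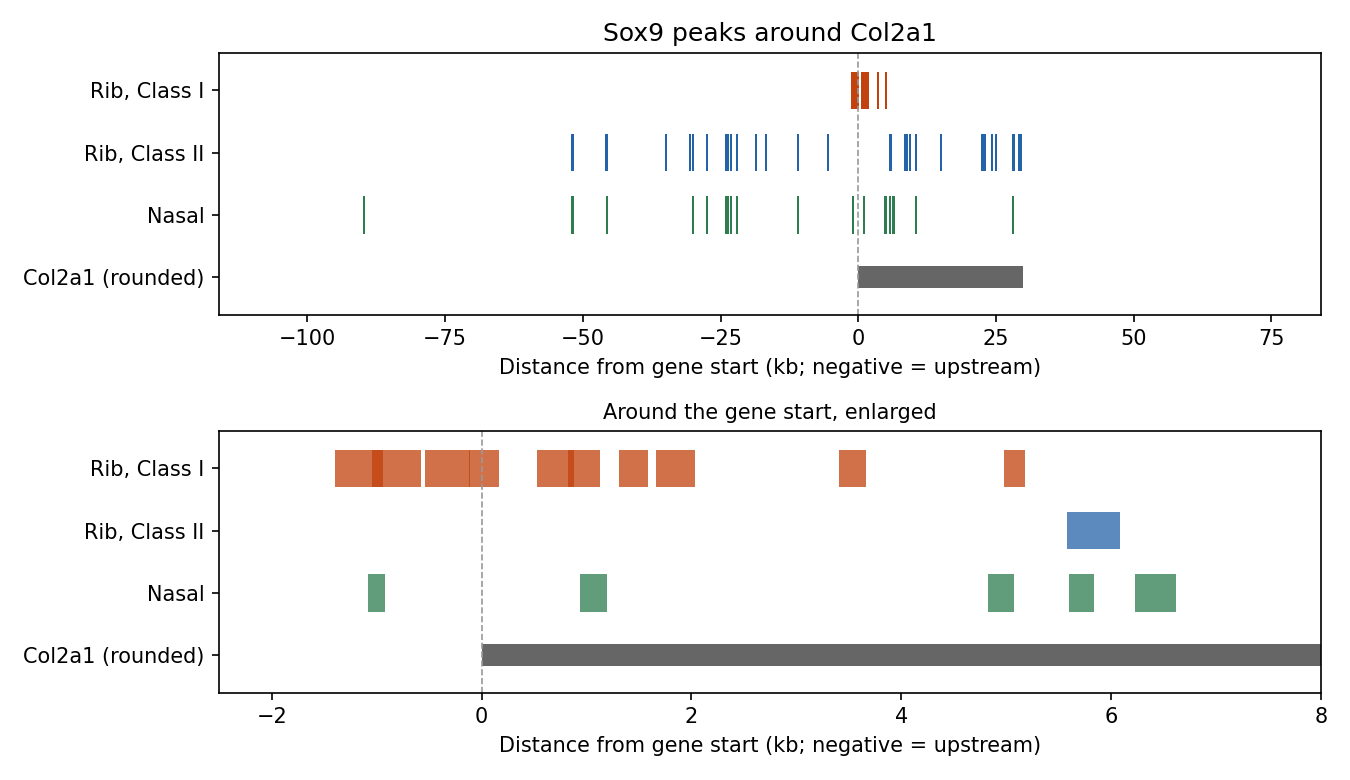
Sox9 peaks by distance from the rounded gene start in kb, upstream to the left, one row for each list, with the gene as a grey bar; in the upper panel narrow peaks are widened to stay visible, and the lower panel enlarges the gene start to scale. The 10 Class I peaks sit together around the start, and Class II and nasal peaks spread over the gene and upstream of it.

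All 10 Class I peaks stood in a single block across the gene start, and no Class II peak stood among them. The block ran over 6.58 kb, from 97828818 to 97835393, and its peaks covered 48.9% of that length. Its 2 innermost peaks lay apart, at 97828818 to 97829020 and at 97830339 to 97830591. The other 8 followed each other closely, at 97831965 to 97832335, 97832414 to 97832686, 97832876 to 97833178, 97833121 to 97833467, 97833833 to 97834123, 97834111 to 97834543, 97834579 to 97835048 and 97834940 to 97835393. In 3 places neighbouring peaks of these 8 shared bases. When peaks at most 500 bp apart were joined, the 8 became 1 region of 3429 bp and the block fell to 3 regions. The remaining 2 regions were the innermost peaks, of 203 and 253 bp. Among all Class I peaks, only a stretch on chromosome 17 held more of them in the same length, with 11, and the next, on chromosome X, held 9. After these came a stretch on chromosome 11 with 7. Nasal peaks met 4 of the 10 Class I peaks at Col2a1, 0 of the 11 on chromosome 17, 3 of the 9 on chromosome X and 6 of the 7 on chromosome 11, against 68.8% of all Class I peaks.

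Class I peaks at the gene start were broad. Their median width was 325 bp, with a range of 203 to 470 bp, against a median of 177 bp over the whole Class I list. All 10 were wider than that list's median, and 5 were wider than its 90th percentile of 316 bp. Class II peaks at the locus had a median of 177 bp, with a range of 42 to 509 bp, against 181 bp over the whole Class II list. Nasal peaks had a median of 179 bp, with a range of 28 to 397 bp, against 182 bp over the whole nasal list. Peaks that lie side by side can share fragments, so the 10 widths cannot be taken as independent, and no test was made. Only in Class I was every member above the median of its list. Width differed by side in each list, but not in the same direction. Class I peaks were 203 to 371 bp wide in the gene and 433 to 470 bp wide upstream of its rounded start. Class II peaks had a median of 254 bp in the gene and 164 bp upstream, and nasal peaks 245 and 157 bp. In the gene, 7 of the 13 Class II peaks and 4 of the 6 nasal peaks were wider than their list's median. Upstream, 6 of the 14 Class II peaks and 4 of the 11 nasal peaks were.

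**Figure D2:**
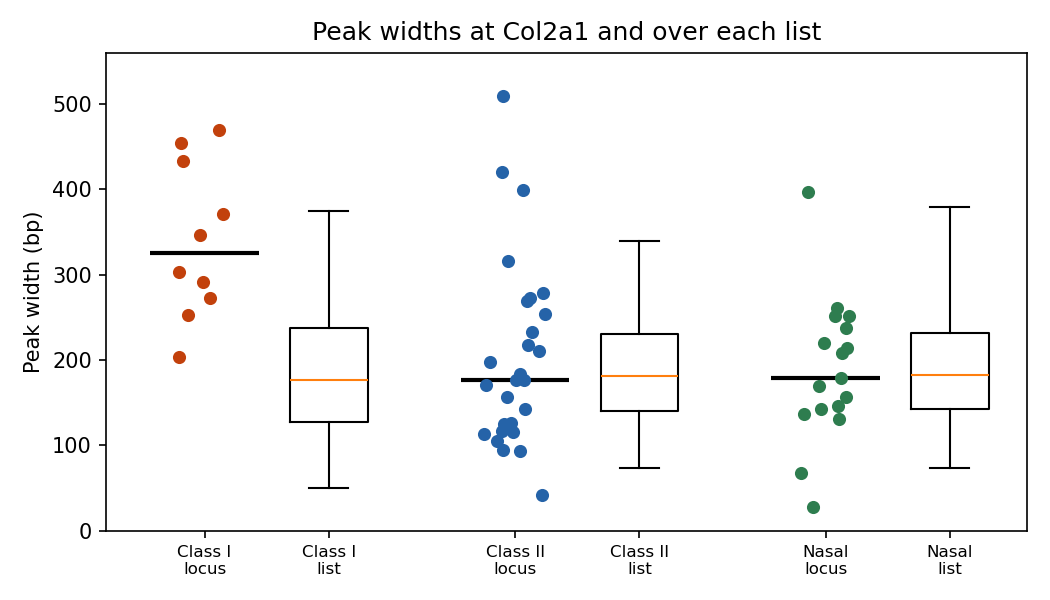
Peak width in bp for each peak at the locus (points, horizontal bar at the median) and for the whole list (box at the quartiles, line at the median, whiskers from the 5th to the 95th percentile). The Class I points, 203 to 470 bp, all lie above their list's median of 177 bp, whereas the Class II and nasal points spread around theirs.

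The 27 Class II peaks flanked the Class I block, 13 in the gene and 14 upstream. The 13 in the gene ran from 97804265 to 97828420, and the 14 upstream from 97839467 to 97885914. The widest was the one nearest to the block inside the gene, at 97827912 to 97828420, with 509 bp. It was also the widest of all 27656 rib peaks in the genome. The first group held several close runs near the 3' end, where 7 peaks lay 20 to 30 kb from the gene start. Gaps between neighbouring rib peaks of the locus had a median of 824.5 bp, against 23.4 kb over the whole rib list. Between neighbouring nasal peaks the median gap was 3430.5 bp, against 35.7 kb over the whole nasal list.

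With no score in the lists, peaks were ranked by their place in the list, whose meaning no label states. Upstream Class II peaks stood earlier in the rib list than the other rib members by median place. The 14 upstream Class II peaks had a median place of 4295 among 27656, with a range of 322 to 23711. The 13 Class II peaks in the gene had a median of 19393, with a range of 627 to 26329. Over all Class II peaks the median was 12631. The 10 Class I peaks had a median of 19076, with a range of 6309 to 26420, against a median of 16983.5 for all Class I peaks. The median place of all rib peaks is 13828.5. Before it stood 13 of the 14 upstream Class II peaks, 3 of the 13 in the gene and 1 of the 10 Class I peaks. By the medians above, most Class I peaks of the whole list also stood after that place, and most Class II peaks before it. The ranges of the groups overlapped. In the nasal list the median place was 11796 among 17440 for the 6 peaks in the gene and 3775 for the 11 upstream, where the range of 850 to 16661 took in that of the gene, 4288 to 15502.

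The 5 earliest rib peaks were each Class II, and 4 of them lay upstream. The earliest, place 322, was at 97857018 to 97857188, 23.1 kb upstream of the gene start. Next came place 386 at 97844786 to 97844996, 10.9 kb upstream, and place 574 at 97879509 to 97879907, 45.7 kb upstream. Place 627 was the wide peak in the gene named above, and place 985 was at 97861373 to 97861570, 27.5 kb upstream. All 5 were met by a nasal peak, as were 81.1% of all Class II peaks in the first 10% of the rib list. The earliest Class I peak, place 6309, was at 97832876 to 97833178, just inside the gene start, and a nasal peak met it as well.

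The 5 earliest nasal peaks all lay upstream, and each met a rib peak, as did 89.4% of all peaks in the first 25% of the nasal list. The earliest, place 850, was at 97844856 to 97844998. It shared 141 bp with the rib peak of place 386. Next came place 1567 at 97885791 to 97885936 and place 2258 at 97879497 to 97879633, which met the rib peaks of places 1808 and 574. Place 3605, at 97856943 to 97857194, contained the whole of the earliest rib peak, and place 3620 was at 97863875 to 97864094. The 7 earliest nasal peaks, a cut that was not planned, all met rib peaks that were among the 9 earliest rib peaks of the locus. Over the 16 rib peaks that met a nasal peak, Spearman's rho between the places was 0.575 as a description, and 2 of these rib peaks share a nasal partner. Neither result has a value over the whole lists beside it, so neither can be called particular to Col2a1.

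**Figure D3:**
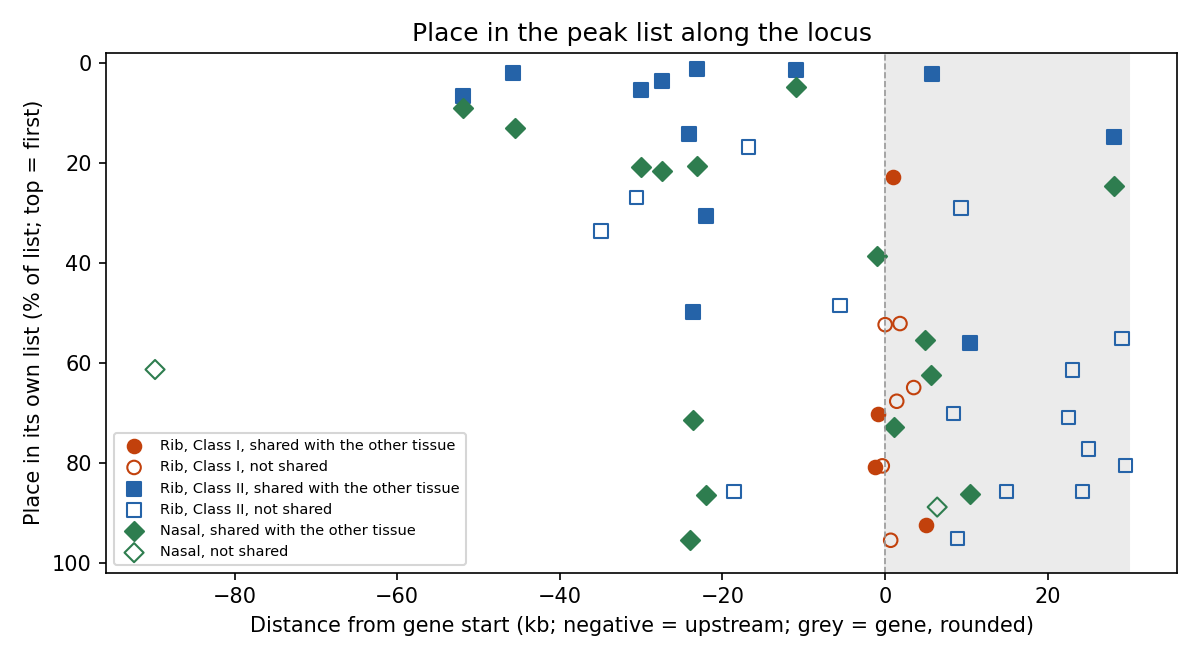
Place of each peak in its own list, in percent of the list with the first at the top, against distance from the rounded gene start in kb (upstream to the left, gene in grey); filled symbols share at least 1 bp with the other tissue and open symbols do not. Of the peaks in the gene, 16 of 20 rib and 5 of 6 nasal ones lie in the later 50% of their list, as do 4 of 17 rib and 4 of 11 nasal ones upstream. The 7 rib peaks in the first 10% of their list are all filled, where 81.7% of all rib peaks in that part are shared.

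Rib and nasal peaks were intersected to see which occupied sites the 2 cartilages share at Col2a1. Nasal peaks shared at least 1 bp with 16 of the 37 rib peaks, or 43.2% (95% exact binomial interval 27.1% to 60.5%), against 42.8% over the whole rib list. Rib peaks met 15 of the 17 nasal peaks, or 88.2% (63.6% to 98.5%), against 68.2% over the whole nasal list. The share among rib peaks was thus near that of the list. The nasal share was above it, with the list's value inside the interval. Intervals cover counting error alone, and as neighbouring peaks are not independent they are too narrow. In shared pairs the centres were 3.5 to 190.5 bp apart, with a median of 43.8 bp. In 10 of the 16 pairs the rib peak was the wider one and in 6 the nasal peak.

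Few of the Class I peaks at Col2a1 shared bases with a nasal peak. Nasal peaks overlapped 4 of the 10, or 40.0% (12.2% to 73.8%), against 68.8% over the whole list. That value lies inside the interval. The 4 were the peaks at 97828818, 97832876, 97834579 and 97834940, and the last pair met the same nasal peak, at 97834926 to 97835082. Only 3 nasal peaks thus stood in the block of 10. Counting a gap of up to 1 kb as shared, 9 of the 10 were met, against 81.9% over the list. With peaks joined at 500 bp, 2 of the 3 regions were met, or 66.7%, against 72.3%. Among these settings, only the gap of up to 1 kb put the locus above the list. The locus also lay below with at least 50% of both peaks shared, at 10.0% against 41.4%. With centres within 200 bp it was 40.0% against 70.0%.

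Class II peaks met nasal peaks mainly upstream. Over the locus, nasal peaks overlapped 12 of 27, or 44.4% (25.5% to 64.7%), against 34.4% over the whole Class II list. In the gene they overlapped 3 of 13, or 23.1% (5.04% to 53.8%), and upstream 9 of 14, or 64.3% (35.1% to 87.2%). The intervals of the 2 sides overlapped, and the difference was not tested. The 3 in the gene were those at 97805744 near the 3' end, at 97823384 and at 97827912. Place in the list moved with the side. In the first 25% of the rib list nasal peaks met 2 of 2 Class II peaks in the gene and 7 of 8 upstream, against 65.8% of all Class II peaks there. In the later 75% they met 1 of 11 in the gene and 2 of 6 upstream, against 21.6% of all Class II peaks there. The part of place in the difference between the sides was not tested further.

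**Figure D4:**
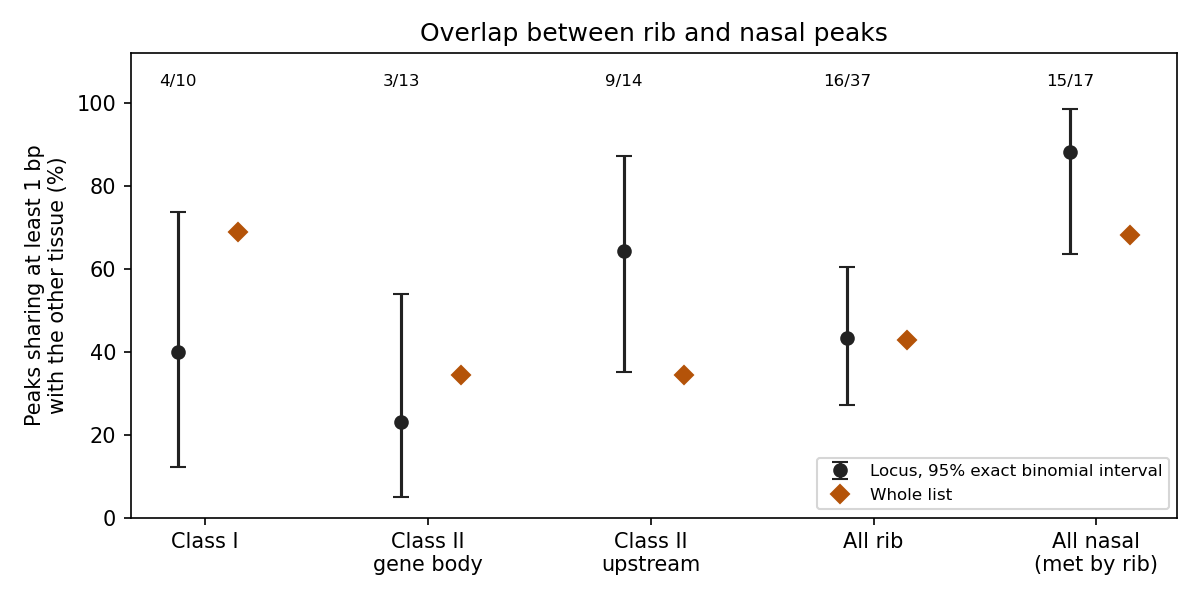
Share of peaks, in percent, that meet a peak of the other tissue by at least 1 bp, for 5 groups at the locus (circles with 95% exact binomial intervals, counts above) and for the whole list of the same kind (diamonds). Class II peaks are met at 23.1% in the gene and 64.3% upstream with overlapping intervals, and 15 of 17 nasal peaks are met by rib peaks.

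Around the earliest rib peak stood a group of 4 rib and 4 nasal peaks, which was singled out after its values were seen. The rib peaks ran over 2.17 kb, from 97855956 to 97858130, with gaps of at most 1 kb. Each met 1 nasal peak, and their centres lay 13.5 to 46 bp apart. The first of them began 1 bp from the start of its nasal partner and shared 207 bp with it. The rib peak at 97857476 contained the nasal peak at 97857597, and the rib peak at 97857974 lay within the nasal peak at 97857919. By place the match was looser, since rib places 322, 3942, 8461 and 13797 faced nasal places 3605, 16661, 15064 and 12451. Over the locus, the most shared bases, 238 bp, belonged to the wide peak at 97827912. After the pair with 207 bp came the Class I peak at 97832876 with 188 bp, the earliest rib peak with 171 bp and the peak at 97861373 with 160 bp. The closest centres, 3.5 bp apart, were those of the rib peak at 97885820 and its nasal partner.

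Only 2 nasal peaks met no rib peak. The peak at 97827378 to 97827774 was the widest nasal peak of the locus, with 397 bp, and lay 137 bp from the wide rib peak in the gene. The peak at 97923783 to 97923810 was 28 bp long, 89.8 kb upstream and 37868 bp from the nearest rib peak. Among the rib peaks, 21 met no nasal peak, or 56.8%, against 57.2% over the whole list. Of these, 15 lay in the gene and 6 upstream.

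Set against the rest of the genome, the locus was richest in rib peaks and less extreme in nasal ones. Over bins of 200 kb cut so that the window is a bin, it ranked first of 7073 with a rib peak, where the next held 30 and the median was 3. With 27 Class II peaks it ranked 2 of 6276 bins, behind 30 in the leading bin. With 10 Class I peaks it ranked 9 of 3378, tied with 5 others, and the leading bin held 23. With 17 nasal peaks it ranked 4 of 5741, tied with 5 others, and the leading bin held 29. Joining peaks at most 500 bp apart left 22 rib regions at the locus, which then ranked 5. Bins shifted by 100 kb, which divide the locus, kept it first for rib with 30 peaks but gave it rank 74 for nasal with 11. By deposited peaks, the locus had 0.459 nasal peaks for each rib peak, where the whole lists hold 17440 nasal and 27656 rib peaks. Joined at 500 bp, the locus had 14 nasal and 22 rib regions, and the whole lists 15992 and 25981. The low ratio at the locus thus did not hold for joined regions. The 4 bins that followed the locus in rib peaks, on chromosomes 7, 11, 15 and 19, held 26 to 30. By deposited peaks, their ratios were 0.593 to 1.12, and nasal peaks met 50% to 69.0% of their rib peaks. Tied after them with 25 rib peaks were a bin on chromosome 4, with a ratio of 0.44 and 36% met, and a bin on chromosome 5, with 0.64 and 52% met. Among the 524 bins with at least 10 rib peaks, the share met by nasal peaks had a median of 43.8%, close to the 43.2% at Col2a1. Among the 42 bins with at least 8 Class I peaks, the Class I share met had a median of 74.5%, and 4 bins lay below the 40.0% at Col2a1.

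**Figure D5:**
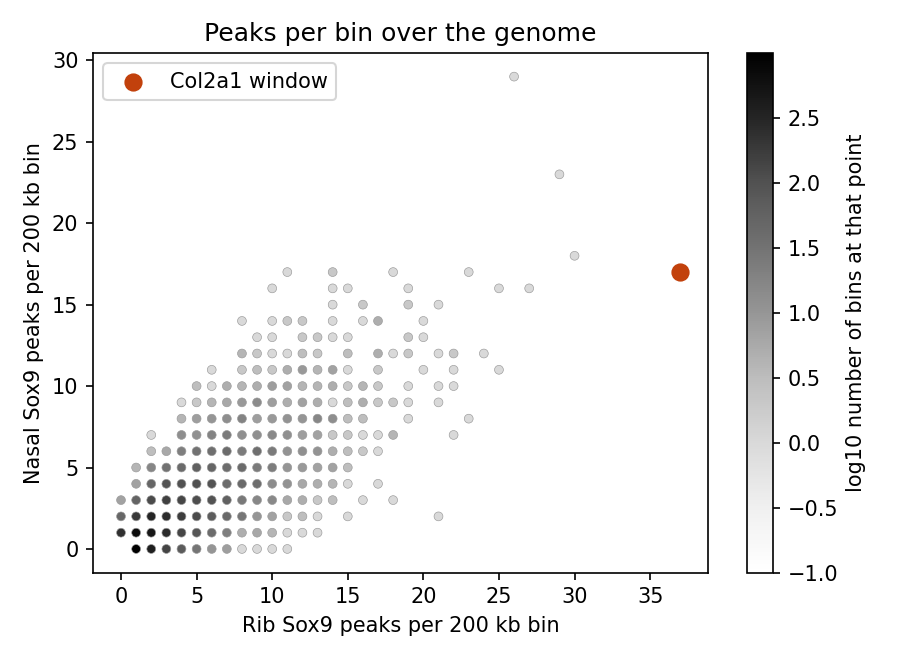
Nasal against rib peaks in each 200 kb bin of the genome, with grey shade for the log10 number of bins at each point and the Col2a1 window in colour. The Col2a1 window has the most rib peaks, 37, and 17 nasal peaks, fewer than the highest bins.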

How the data were processed

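The submitters deposited 4 lists of Sox9 peaks as chromosome, start and end, on mm9 per the submitters' processing notes. No label or file header states the aligner, the peak caller, its control or how the classes were defined, and read depth is unknown. Chromatin came from 20000000 cells for each immunoprecipitation, per the labels' protocols. The window was read with 1 added to each start. The members and lists were chosen with earlier results of these data known. Overlap meant at least 1 shared bp, and shares carry 95% exact (Clopper-Pearson) binomial intervals. Width percentiles, places and bins were computed over the whole lists. No test was made, as there is 1 library per tissue. Peaks named are the 5 earliest and the widest of each tissue, all Class I peaks, nasal peaks with no rib partner and the 5 pairs sharing most bases. Other peaks named, such as those at 97805744, 97823384, 97857476, 97857974 and 97885820, were chosen after their values were seen, as was a bin on chromosome 5 tied with the last of the 5 other bins. The overlap routine was tested on simulated peaks and gave the calls of bedtools 2.31.1. Python 3.11.15, pandas 2.3.3 and scipy 1.17.1 were used. Col2a1 had no entry in the promoter table used, and no sequence is printed. Counts around other cartilage genes need an mm9 annotation and were not run.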

Additional observations from a re-analysis of the deposited data

How the results depend on the processing

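Of 70 recomputed values, 49 stayed within the interval of the share or within 1.5 times the count, place or rank. Some of the 49 could not have moved. The nearest Class II peaks lay 5.53 kb upstream of the gene start and 5.83 kb inside it, beyond the reach of shifts by 1 or 2 kb. No peak crossed an edge of the window, so counting any base in the window could not change the numbers of peaks. Moving the gene start by 1 or 2 kb, and 4 further settings of Class II sides, were chosen after seeing the data, as was joining peaks for shares. With at least 50% of both peaks shared, nasal peaks met 24.3% of rib and 10.0% of Class I peaks, against 28.4% and 41.4% over the whole lists. Rib peaks then met 52.9% of nasal ones, against 45.1%. With gaps up to 1 kb, nasal peaks met 64.9% of rib and 90% of Class I peaks, against 49.9% and 81.9%. The list shares thus moved with the setting too. In the gene alone they met 25% of rib peaks, and in the first 50% of each list 0% of the single Class I peak. Joining peaks at 500 bp left 22 rib regions and 3 of Class I. It moved the rank to 5 for rib, 335 for Class I, 6 for Class II and 11 for nasal peaks. In the first 50% of each list the ranks were 2 for rib, 486 for Class I and 25 for nasal peaks. Bins shifted by 50 kb ranked the locus 1 for Class II and 7 for nasal peaks, by 100 kb 17 and 74, and by 150 kb 1 for Class II. A shift by 100 kb divides the locus between bins. The cause of the other changes was not tested. No paired analysis was possible because each tissue has 1 Sox9 library, and no library could be left out.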
